A study of Caenorhabditis elegans with 6 samples.

Results

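The serotonin neuron libraries are 3 of the 6 libraries of this series and were chosen by their label as serotonin neurons. All 3 came from wild-type Caenorhabditis elegans of strain FQ939 taken as embryos and larvae, so each library mixes developmental stages. RNA was extracted with the PicoPure kit, and 1 to 2 ng of total RNA went into amplified libraries. The labels do not say how the neurons were marked and collected, and they do not say that the 3 libraries came from separate cultures, so the spread between them may be technical. The other 3 libraries, labelled as dopamine neurons of the same strain and genotype, were not used. With 1 group of 3 libraries no difference was tested, and every value below is a description.

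Serotonin is made from tryptophan by tryptophan hydroxylase, which needs the cofactor tetrahydrobiopterin, and then by an aromatic amino acid decarboxylase. It is loaded into vesicles by the monoamine transporter and taken back up by the serotonin transporter. In the worm the main serotonin neurons are the NSM pair, neurosecretory cells inside the pharynx that signal the presence of food, the ADF pair, ciliated chemosensory cells of the head, and in adult hermaphrodites the HSN pair, which drives egg laying.

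Protein-coding genes held 25677630, 23667956 and 10507502 recovered reads in libraries 1, 2 and 3. Library 3 stood apart, with 41.5% of its 20457040 reads in nuclear ribosomal RNA genes against 7.53% of 31068770 in library 1 and 9.80% of 31559049 in library 2. The labels give the molecule as polyA RNA. Levels are given as deposited FPKM, a length-scaled read count, so that genes can be ranked against each other, and as normalized counts where libraries are compared for 1 gene. A gene was taken as detected with at least 10 reads in each of the 3 libraries.

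The marker genes tph-1, mod-5, cat-1, ttx-3 and unc-86 were all detected. So were 59.4% of all protein-coding genes and all 5 dopamine neuron markers, so detection alone does not set the label apart. By mean FPKM tph-1, mod-5 and cat-1 ranked above all 5 dopamine markers, and so did cat-4 (rank 615). Of these, cat-1 encodes a transporter of monoamines, not of serotonin alone. The identity genes bas-1 (rank 2552), qdpr-1 (2901), pcbd-1 (5010) and ptps-1 (6866) ranked below the dopamine marker ast-1. The factor genes unc-86 (rank 3323) and ttx-3 (rank 4302) ranked below the dopamine factor gene ast-1 (2032) and the GABA factor gene unc-30 (2069). Tryptophan hydroxylase, tph-1 (chromosome II, 7549335 to 7551983 in WBcel235), had 138.8, 80.32 and 104.4 FPKM in libraries 1, 2 and 3. Its mean was 108 ± 29.4 (SD, n = 3), which placed it at rank 439 of 19635 protein-coding genes, against a median gene at 1.81. The serotonin transporter gene mod-5 (chromosome I, 3034716 to 3047794) had 48.04, 48.21 and 39.58 FPKM, a mean of 45.3 ± 4.93 (SD, n = 3) and rank 1263. Its libraries lay close together, whereas tph-1 was highest in library 1 and lowest in library 2. The vesicular monoamine transporter gene cat-1 (chromosome X, 5705690 to 5710737) had 49.15, 40.73 and 78.36 FPKM, with library 3 well above the other two, and rank 1008.

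The enzymes of serotonin and cofactor synthesis spanned a range of levels. GTP cyclohydrolase, cat-4, the entry enzyme of tetrahydrobiopterin synthesis, had 125.4, 57.2 and 70.47 FPKM and rank 615, or 929 without library 1. The decarboxylase gene bas-1 had 20.79, 15.98 and 32.07 FPKM, below tph-1 and mod-5 in every library. The cofactor recycling gene qdpr-1 averaged 19.8 ± 2.19 (SD, n = 3), while pcbd-1, which acts in the same recycling, averaged 9.40 ± 3.01 and ptps-1, the second enzyme of cofactor synthesis, 5.07 ± 1.33. About 14.9% of the exons of pcbd-1 overlap a gene on the other strand, and no source used here states whether counting used the strand, so its level is uncertain. In the order of the 10 identity genes by mean FPKM, only mod-5 over bas-1 and pcbd-1 over ptps-1 were neighbours whose libraries did not overlap.

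The transcription factor genes of the identity list lay below tph-1, cat-4, cat-1 and mod-5 and above pcbd-1 and ptps-1 in mean FPKM. The POU homeobox gene unc-86, which with ttx-3 specifies NSM and lies on chromosome III at 8212740 to 8216336, had 17.07, 13.98 and 18.83 FPKM, a mean of 16.6 ± 2.46 (SD, n = 3) and rank 3323. The LIM homeobox gene ttx-3 (chromosome X, 11764456 to 11769378) had 5.65, 8.99 and 21.52 FPKM and rank 4302. It was the least even of the identity genes, with 3.81 times as much in library 3 as in library 1 and a place among protein-coding genes between 2947 and 6513 by library. Without library 3 its rank was 5671.

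**Figure D1:**
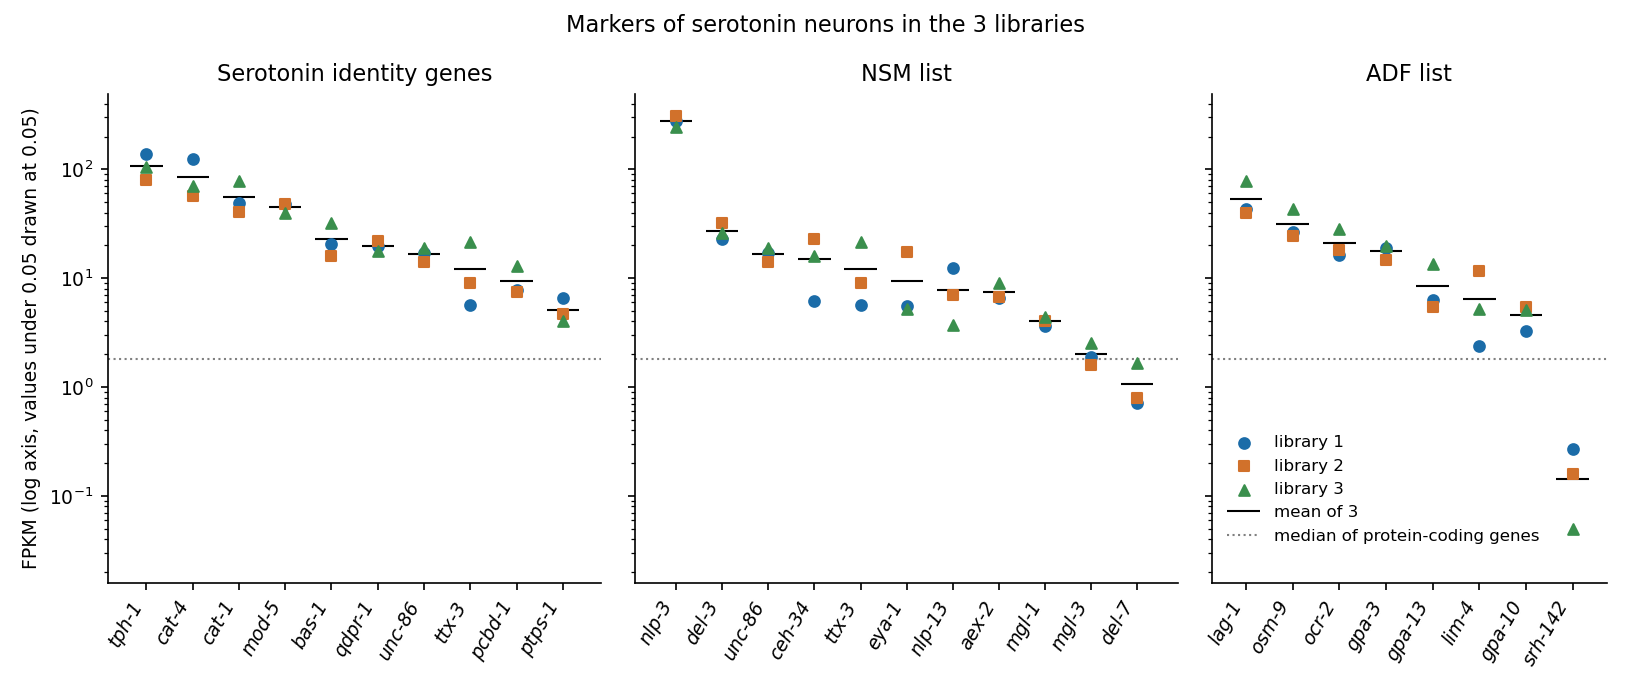
FPKM (log axis) of each gene of the serotonin identity, NSM and ADF lists in libraries 1 (circles), 2 (squares) and 3 (triangles), with the mean as a bar and the median protein-coding gene, 1.81 FPKM, as a dotted line. All 10 identity genes lie above the line in every library, ttx-3 spreads from 5.65 to 21.52, and srh-142 is near 0.

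All 11 genes of the NSM list were detected, against 59.4% of all protein-coding genes. The most abundant was nlp-3, a neuropeptide precursor of NSM, ADF and HSN, with 279.1, 310.8 and 244.2 FPKM, a mean of 278 ± 33.3 (SD, n = 3) and rank 130. Its libraries lay within 1.27 times of each other. The other NSM neuropeptide precursor on the list, nlp-13, was far lower, at 12.42, 6.97 and 3.73 FPKM. The DEG/ENaC channel genes of NSM, del-3 and del-7, differed as well, with means of 27 ± 4.57 and 1.06 ± 0.536 FPKM (SD, n = 3). The metabotropic glutamate receptor genes mgl-1 and mgl-3 averaged 4.05 ± 0.406 and 2.00 ± 0.475 FPKM, and the receptor gene aex-2 averaged 7.47 ± 1.36.

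The sine oculis-type homeobox gene ceh-34, which sets the identity of all pharyngeal neurons, had 6.13, 22.71 and 16.02 FPKM. Its partner eya-1 had 5.59, 17.26 and 5.19. Both were highest in library 2, unlike unc-86 and ttx-3, which were highest in library 3.

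Of the 8 genes of the ADF list 7 were detected, against 59.4% of all protein-coding genes. The CSL transcription factor gene lag-1, an activator of serotonin genes in ADF, had 43.19, 39.3 and 78.33 FPKM. The TRPV channel genes osm-9 and ocr-2, which act together in sensory cilia and keep tph-1 up in ADF, had means of 31.7 ± 10.3 and 21.1 ± 6.60 FPKM (SD, n = 3), and library 3 was the highest for both. The G protein alpha subunit genes gpa-3, gpa-13 and gpa-10 averaged 17.8 ± 2.77, 8.43 ± 4.52 and 4.62 ± 1.21. The LIM homeobox gene lim-4, which specifies ADF, had 2.37, 11.63 and 5.24 FPKM. The chemoreceptor gene srh-142, used as a marker of ADF, had 15, 7 and 0 reads and did not reach the limit for detection. Summed over the list, ADF genes held 0.050 ± 0.0118% of protein-coding FPKM and NSM genes 0.134 ± 0.0163% (SD, n = 3), a comparison of 2 chosen lists in which nlp-3 alone is most of the NSM sum. The order turned when reads were used in place of FPKM, with 0.0716% for ADF and 0.0575% for NSM. In bulk RNA, fewer cells of a type and less RNA per cell cannot be told apart, so neither share gives a number of cells.

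The HSN list had 7 of 9 genes detected, or 77.8%, against 59.4% of all protein-coding genes. It was led by the zinc finger genes egl-46 at 179 ± 69.4 FPKM (SD, n = 3) and egl-43 at 66.5 ± 12.8, which are also used by other neurons. The HSN neuropeptide gene flp-23 had 29, 61 and 0 reads and was not detected. All 5 genes of the AIM list, a neuron that takes up serotonin, were detected at low levels, from 1.14 FPKM for the vesicular glutamate transporter gene eat-4 to 8.54 for the LIM homeobox gene ceh-14.

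Genes of the ciliary transport machinery were present throughout, with all 21 of the list detected and 19 at a mean of at least 10 FPKM. Over all protein-coding genes 59.4% were detected. The list included the tubby homolog tub-1 at 63.4 ± 4.07 FPKM (SD, n = 3), the RFX factor gene daf-19, a master regulator of cilia, at 48.6 ± 21.4, and the transport subunit gene ift-81 at 42.7 ± 29. NSM has no cilium, and ADF does, but which cells these reads came from was not tested. In 19 of the 21 genes the normalized count was highest in library 3, against 42.9% of all detected protein-coding genes. For daf-19 the libraries had 33.19, 39.7 and 73.06 FPKM, and for ift-81 they had 26.5, 25.55 and 76.18.

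All 21 pan-neuronal genes were detected, against 59.4% of all protein-coding genes. Together they held 0.865%, 0.642% and 0.913% of protein-coding FPKM in libraries 1, 2 and 3. The synaptobrevin gene snb-1, of the vesicle fusion machinery, was the highest at 401.1, 366 and 378 FPKM, with a CV of 0.0467. The SNAP-25 gene ric-4 averaged 200 ± 57.6 (SD, n = 3), the small GTPase gene rab-3 193 ± 83.3 and the syntaxin-binding gene unc-18 197 ± 72.3. In 17 of the 21 the highest library was again library 3, and in 13 after rescaling to the same protein-coding total. Over all detected genes these shares were 42.9% and 32.6%. Genes that act in the cutting and trimming of neuropeptides were abundant too, with all 10 detected, against 59.4% of all protein-coding genes. Of these, egl-3, egl-21, sbt-1 and ida-1 are also on the pan-neuronal list, so the 2 results are not separate. The proprotein convertase gene egl-3 averaged 182 ± 45.2 FPKM, its chaperone gene sbt-1 240 ± 42.0 and the carboxypeptidase gene egl-21 181 ± 41.6.

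**Figure D2:**
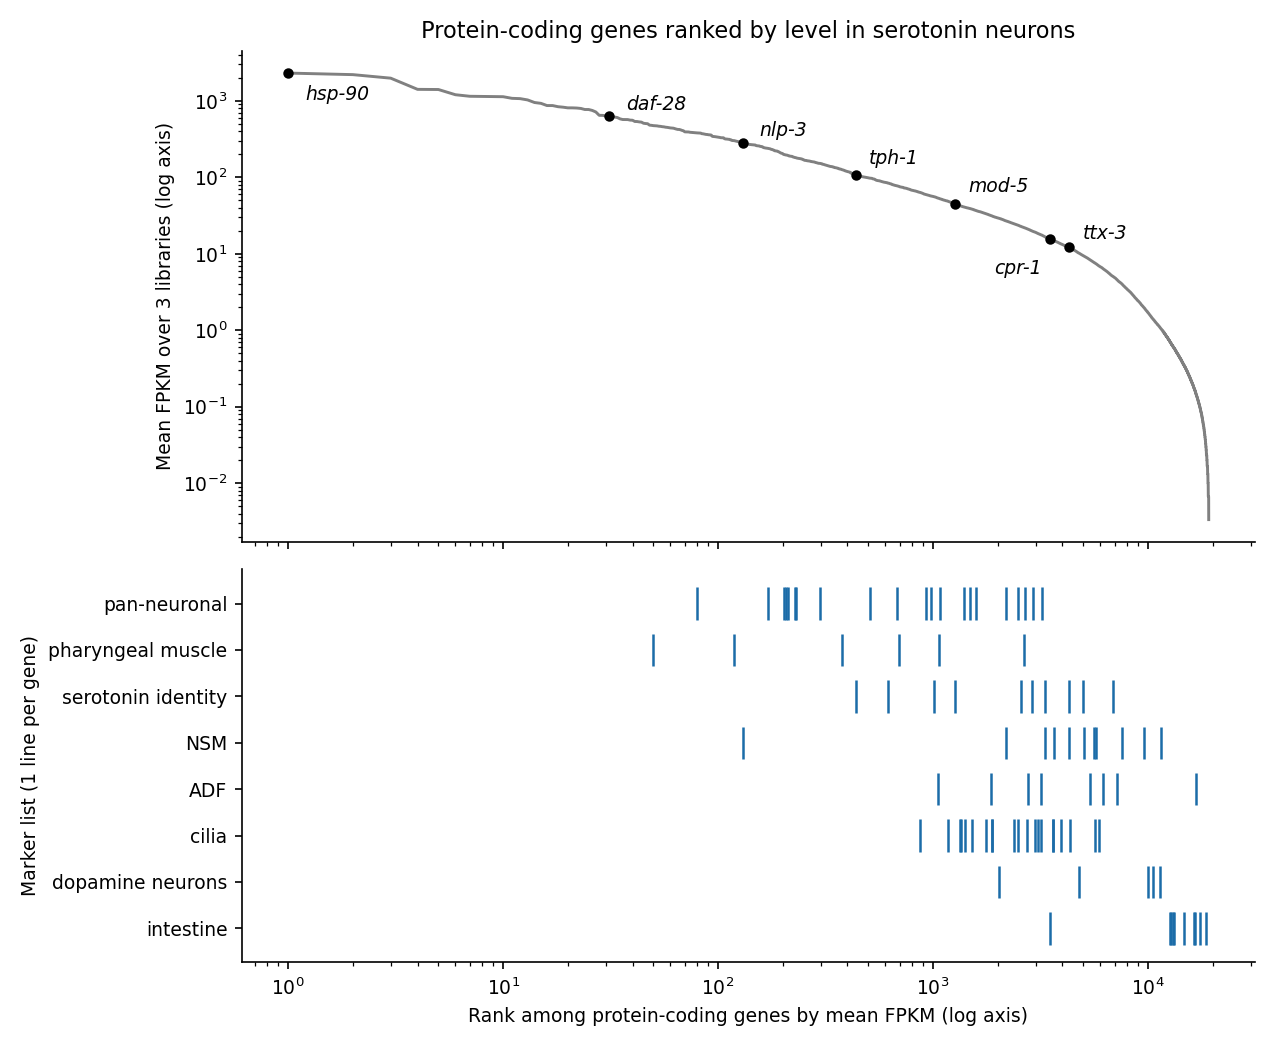
Top, mean FPKM over the 3 libraries (log axis) against rank among protein-coding genes (log axis), with 7 genes marked; bottom, the ranks of the genes of 8 marker lists, 1 line per gene. By median rank pharyngeal muscle (536) and pan-neuronal genes (926) lie furthest left. Cilia genes (2492) and serotonin identity genes (2726, with tph-1 at rank 439) follow. Intestinal genes lie at the far right except cpr-1 at rank 3507.

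The genes with the highest FPKM were of several kinds. The chaperone gene hsp-90 led with 1928, 2365 and 2653 FPKM, a mean of 2315 ± 365 (SD, n = 3), and was among the first 3 genes of every library. The second, R02F11.1, had 839.9, 2533 and 3254 FPKM, so that library 1 had far less than the other two. The third was zip-2, a bZIP transcription factor gene of the response to infection and translation block, with 1710, 2713 and 1534 FPKM. The 14-3-3 gene ftt-2 and the actin gene act-4 followed at 1418 ± 874 and 1411 ± 538, and the sodium pump gene eat-6 stood at rank 13 with 1031 ± 205.

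Among the 30 highest genes were 4 ribosomal protein genes led by rpl-18, the mitochondrial genes COX1, COX2 and COX3, both eef-1A translation factor genes, and 5 genes with only a sequence name, led by R02F11.1. Ribosomal protein genes made up 22 of the first 100 and held 7.56%, 8.07% and 5.98% of protein-coding FPKM, a mean of 7.2 ± 1.09% (SD, n = 3). Measured in reads instead, which are not divided by gene length and so favour long genes, they held 2.73%. Altogether the first 10 genes held 5.25 ± 0.772%, the first 100 held 21.9 ± 0.638% and the first 1000 held 58.4 ± 1.88% of protein-coding FPKM. Of the first 100 genes by library, 68 were shared by all 3 libraries. FPKM ranks between genes are approximate, because the gene length implied by the deposited values lay within 10% of the annotated exon length for 73.7% of 6914 genes.

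A few secreted peptide genes stood high, while the median ranks were 6441 for FMRFamide-like, 8572 for other neuropeptide and 11153 for insulin-like genes. The insulin-like gene daf-28, known for its part in the choice of dauer development, had 965.3, 409.4 and 506.6 FPKM, a mean of 627 ± 297 (SD, n = 3) and rank 31, whereas the next insulin-like gene, ins-18, averaged 24.5 ± 11.5. The FPKM of daf-28 rests on a length 0.479 times the annotated exon length. Of 39 insulin-like genes 12 were detected, and 2 had no read at all. Of 31 FMRFamide-like peptide genes 27 were detected. The highest of them, flp-27, had 547.6, 334.6 and 256.7 FPKM, followed by flp-25 at 261 ± 76.5 and flp-34 at 123 ± 47.1. Other neuropeptide genes had 43 of 76 detected, led by nlp-3, nlp-80 at 58 ± 6.32 and nlp-11 at 35.2 ± 10.7. The detected shares were 30.8% for insulin-like, 87.1% for FMRFamide-like and 56.6% for other neuropeptide genes, against 59.4% of all protein-coding genes.

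Among ion channels, the two-pore potassium channel gene twk-11 was the highest at 110.7, 208.9 and 214.9 FPKM, with a mean of 178 ± 58.5 (SD, n = 3), above the next gene of its family, twk-49, at 20.8 ± 2.33, for which 27.4% of the exons overlap a gene on the other strand. The L-type calcium channel gene egl-19 averaged 67.7 ± 20.5, its beta subunit gene ccb-1 65.7 ± 18.9, and the calcium channel gene unc-2, of synaptic release, 34.9 ± 11.2. All 25 of the other potassium channel genes counted were detected, against 59.4% of all protein-coding genes. They were led by the KCNQ-type kqt-1 at 65.6 ± 8.38 and the BK-type slo-1 at 38.2 ± 7.89. About 14.9% of the exons of kqt-1 overlap a gene on the other strand. Of the ligand-gated channel genes 69.5% were detected, against 59.4% of all protein-coding genes, with lgc-47 the highest at 49.2 ± 8.64.

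Serotonin receptors were low with 1 exception. The G protein-coupled receptor gene ser-5 had 14.79, 23.92 and 23.17 FPKM, a mean of 20.6 ± 5.07 (SD, n = 3). The other 6 averaged between 1.06 for ser-7 and 3.48 for ser-4, a range that takes in the serotonin-gated chloride channel gene mod-1 at 2.42 ± 0.839 and the cation channel gene lgc-50 at 2.76 ± 1.90. None of the 7 was highest in library 3, against 42.9% of all detected genes, or 32.6% after rescaling to the same protein-coding total.

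Of 1311 chemoreceptor genes 164 were detected, or 12.5% against 59.4% of all protein-coding genes, and 87 had no read in any library. Only 6 reached a mean of 10 FPKM. The highest was srr-4 at 192.9, 162.5 and 165.9 FPKM, an even level with a mean of 174 ± 16.7 (SD, n = 3), and the next was srt-42 at 37.6 ± 9.55. The largest family, srh, had 18 of 220 genes detected.

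Transcription factor families were led by nhr-3 at 166 ± 23.6 FPKM (SD, n = 3), nhr-49, a regulator of fat metabolism, at 133 ± 33, the NK-2 homeobox gene ceh-27 at 144.5, 112.6 and 134.9 in libraries 1, 2 and 3, and hlh-30, the worm TFEB, at 88.2 ± 26.8. Of the nuclear hormone receptor genes 171 of 269 were detected, or 63.6%, near the 59.4% of all protein-coding genes. Of the ceh homeobox genes 47 of 63 were detected, or 74.6%, and of the hlh genes 12 of 25, or 48.0%.

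**Figure D3:**
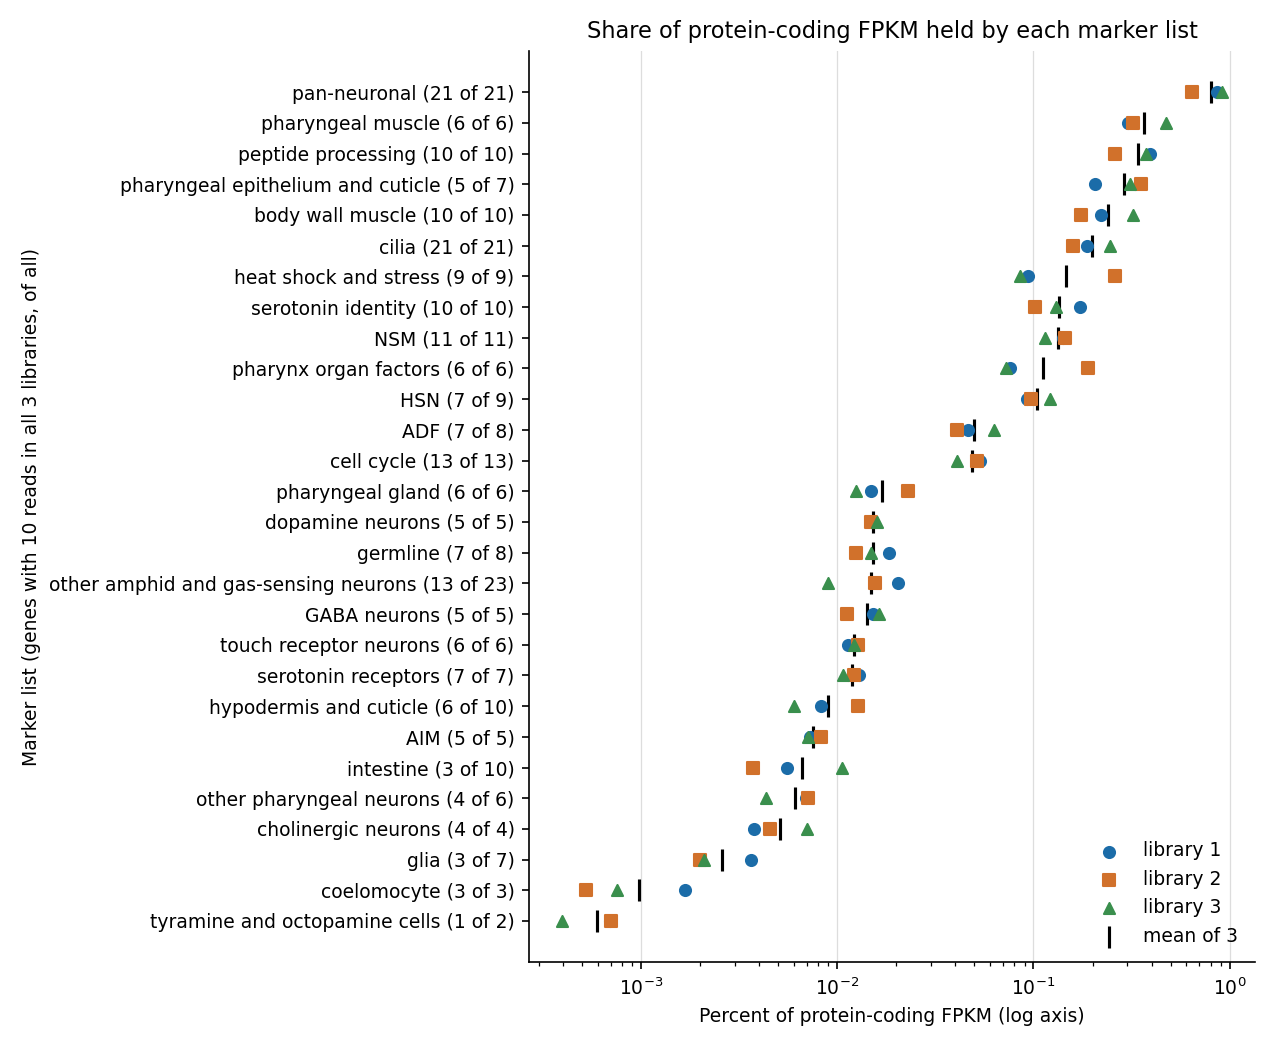
Percent of protein-coding FPKM (log axis) held by each marker list in libraries 1 (circles), 2 (squares) and 3 (triangles), with the mean as a tick and the number of detected genes in brackets. Pan-neuronal genes hold 0.807% on average, pharyngeal muscle genes 0.365% and intestinal genes 0.00657%.

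Markers of other cells were measured beside the neuronal genes. All 6 pharyngeal muscle genes were detected, against 59.4% of all protein-coding genes, and their summed level was 770.4, 949 and 1448 FPKM. The troponin I gene tni-4, of pharyngeal muscle, had 323.7, 503.4 and 599.1 FPKM, which was 2.33, 6.27 and 5.74 times the level of tph-1 in the same library. The pharyngeal myosin gene myo-2 had 95.69, 84.01 and 197.9 FPKM, and myo-1 averaged 76.3 ± 24.1 (SD, n = 3). Library 3 had the highest value in 5 of the 6, the exception being ceh-22. Of all detected genes 42.9% were highest there, or 32.6% after rescaling to the same protein-coding total. The pharyngeal cuticle gene abu-14 ranked 20 with 495.3, 1017 and 924 FPKM, but abu-6 and abu-7, near-identical copies whose reads may be split, were not detected and the list as a whole had 5 of 7. Gland genes were lower, with phat-3 at 17.2 ± 2.75. None of the pharyngeal genes listed had 0 reads in all 3 libraries. This sets them little apart, since only 2.41% of all protein-coding genes had 0 reads in all 3. No gene of the intestinal, glial or coelomocyte lists did either. The part of pharyngeal material in the serotonin neuron values was not tested.

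Body wall muscle genes were uneven. The myosin gene unc-54 had 113.3, 71.45 and 117.6 FPKM, while the myosin gene myo-3 of the same filaments had 5.66, 6.39 and 3.54. All 10 genes of the list were detected, against 59.4% of all protein-coding genes. The tropomyosin gene lev-11, also used in the pharynx, was the highest at 381 ± 217 (SD, n = 3). The summed level was 561.4, 515.4 and 989.7 FPKM.

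The intestinal genes listed, which include yolk genes, were low. Of 10 genes 3 were detected, against 59.4% of all protein-coding genes, and apart from the cathepsin gene cpr-1, at 8.76, 7.28 and 30.95 FPKM, their means stayed between 0.0300 for the esterase gene ges-1 and 0.707 for the intermediate filament gene ifb-2. The listed intestinal genes summed to 14.06, 10.94 and 32.13 FPKM. The highest yolk gene, outside the list, averaged 6.86 FPKM. The hypodermal list had 6 of 10 detected, a share near that of all genes, led by the collagen gene sqt-3 at 5.60, 16.51 and 7.99 FPKM, and the cuticle collagen gene rol-6 had 1, 0 and 0 reads. The coelomocyte and glial lists summed to between 1.53 and 4.23 FPKM and between 5.85 and 9.28 FPKM by library.

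Markers of other transmitter types were low but present. The tyrosine hydroxylase gene cat-2 and the dopamine transporter gene dat-1 averaged 1.4 ± 0.404 and 1.72 ± 0.402 FPKM (SD, n = 3). The ratio of tph-1 to cat-2 was 148, 47.2 and 66.9, and the ratio of mod-5 to dat-1 was 38.1, 24.9 and 20.1. The highest gene of the dopamine and GABA lists was a factor gene, whereas that of the cholinergic list was unc-17, an effector gene. The ETS factor gene ast-1, of dopamine neurons, averaged 29.1 ± 8.85 and the homeobox gene unc-30, of GABA neurons, 28.5 ± 11.3, against 1.83 ± 0.627 for the GABA synthesis gene unc-25. The acetylcholine genes unc-17 and cha-1, which share their first exon so that their reads cannot be fully told apart, averaged 5.42 ± 3.52 and 3.66 ± 2.56.

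Sensory genes of other neurons were detected in 13 of 23 cases, or 56.5%, near the 59.4% of all protein-coding genes. The TGF-beta gene daf-7, of the ASI neurons, was the highest of these 23 at 13.56, 9.97 and 4.52 FPKM. The list leaves out other genes of sensory type, such as the receptor guanylyl cyclase gene gcy-15, at 20.25, 12.78 and 84.33 FPKM. The ASE factor gene che-1 had 15, 6 and 4 reads and the AWC receptor gene str-2 had 5, 3 and 1.

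The spread between the libraries was measured on normalized counts. Over 11657 detected protein-coding genes the median coefficient of variation (CV) of normalized counts was 0.301, with a middle range of 0.186 to 0.461. The highest library was over 2 times the lowest in 39.7% of the genes and over 4 times in 8.39%. Pearson's r of log2 values across genes, which are not independent replicates, was 0.943 between libraries 1 and 2, 0.936 between 1 and 3 and 0.939 between 2 and 3. The median CV was 0.422 for genes with a mean of 10 to 100 normalized counts and 0.269 for those of 100 to 1000. It was 0.238 in the next bin of the same width on the log scale and 0.249 in the 166 genes above that.

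**Figure D4:**
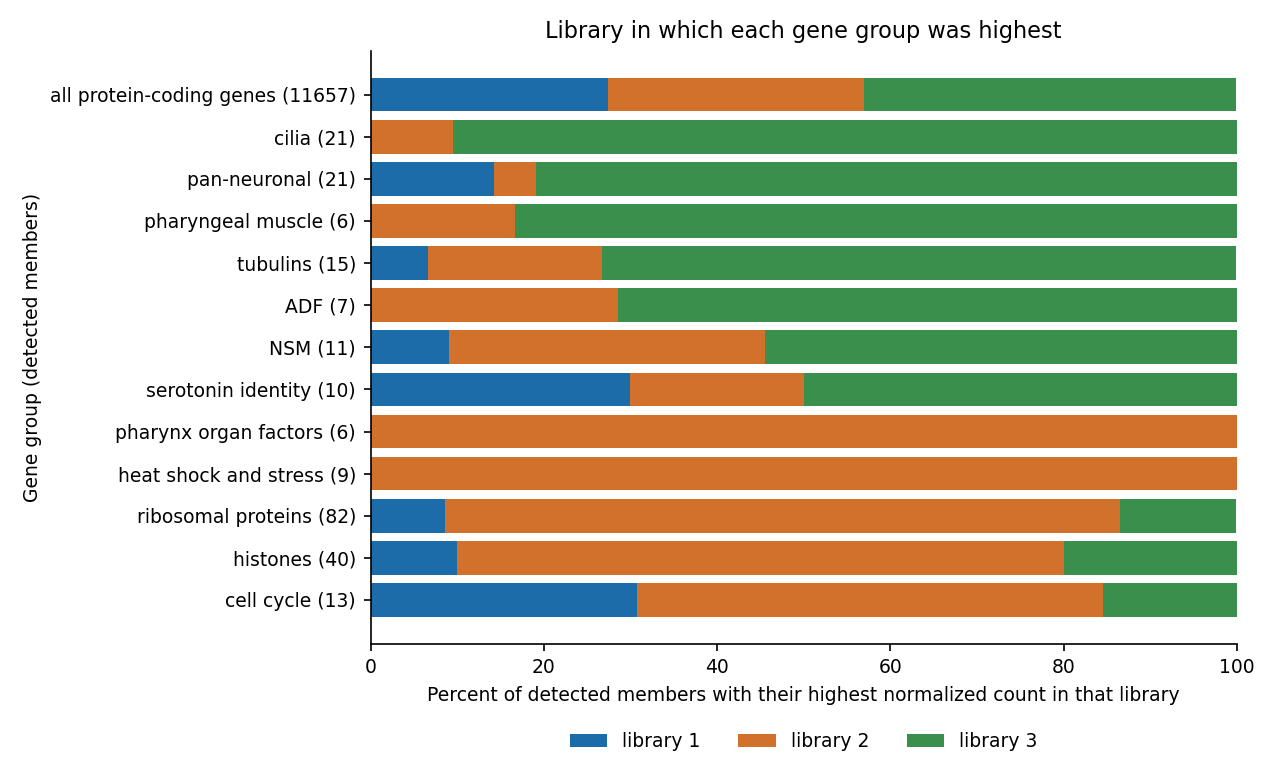
Percent of detected members of each gene group whose normalized count was highest in library 1, 2 or 3 (bars sum to 100, members in brackets). Cilia and pan-neuronal genes are mostly highest in library 3, and the 6 pharynx organ factor genes and the 9 entries of the heat shock and stress list are all highest in library 2, against 27.4%, 29.6% and 42.9% for all detected genes in libraries 1, 2 and 3.

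The direction of the differences went by gene group. Of all detected genes 27.4% were highest in library 1, 29.6% in library 2 and 42.9% in library 3, and these shares became 41.5%, 25.8% and 32.6% after rescaling to the same protein-coding total, so a count for 1 library is read against both. The 6 pharynx organ factor genes were all highest in library 2 under both scalings. The FoxA gene pha-4, which sets the identity of the pharynx, had 127.3, 413.5 and 139.2 FPKM, and the T-box gene tbx-2 had 23.35, 49.66 and 23.75. Of the 6, 23.4% of the exons of ceh-22 overlap a gene on the other strand. The 9 heat shock and stress entries come from 7 gene names, as some names match more than 1 entry. These entries were also all highest in library 2, and 8 of them after rescaling. Over all genes with hsp or dnj names this was not so. Of 48 detected, 23 were highest in library 2 and 20 in library 3, among the latter hsp-90 and hsp-1. The inducible chaperone gene hsp-70 had 20.4, 108.6 and 29.63 FPKM and the small heat shock gene hsp-16.2 had 149.2, 494.3 and 162.4. Both were far above the other libraries, whereas hsp-4, the chaperone of the endoplasmic reticulum, had 23.86, 26.8 and 24.32. The heat shock list held 0.146% of protein-coding FPKM on average and 0.0893% without library 2, and the pharynx organ factors held 0.112% and 0.0739%.

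Growth genes were in part highest in library 2 as well. Of 82 detected ribosomal protein genes 64 were highest in library 2, and 47 after rescaling. Of 40 detected histone genes, many of which are near-identical copies, 28 were highest there, and of 13 cell cycle genes 7. The replication gene mcm-7 had 3.26, 11.78 and 2.30 FPKM and the ribonucleotide reductase gene rnr-1 had 4.13, 15.35 and 3.48, while the replication clamp gene pcn-1 was even at 50.25, 49.1 and 48.67. In library 3, the library with 41.5% of its reads in nuclear ribosomal RNA, 19 of 21 cilia genes, 17 of 21 pan-neuronal genes and 5 of 6 pharyngeal muscle genes were highest, and 17, 13 and 5 after rescaling. The part of ribosomal RNA content in these differences was not tested.

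**Figure D5:**
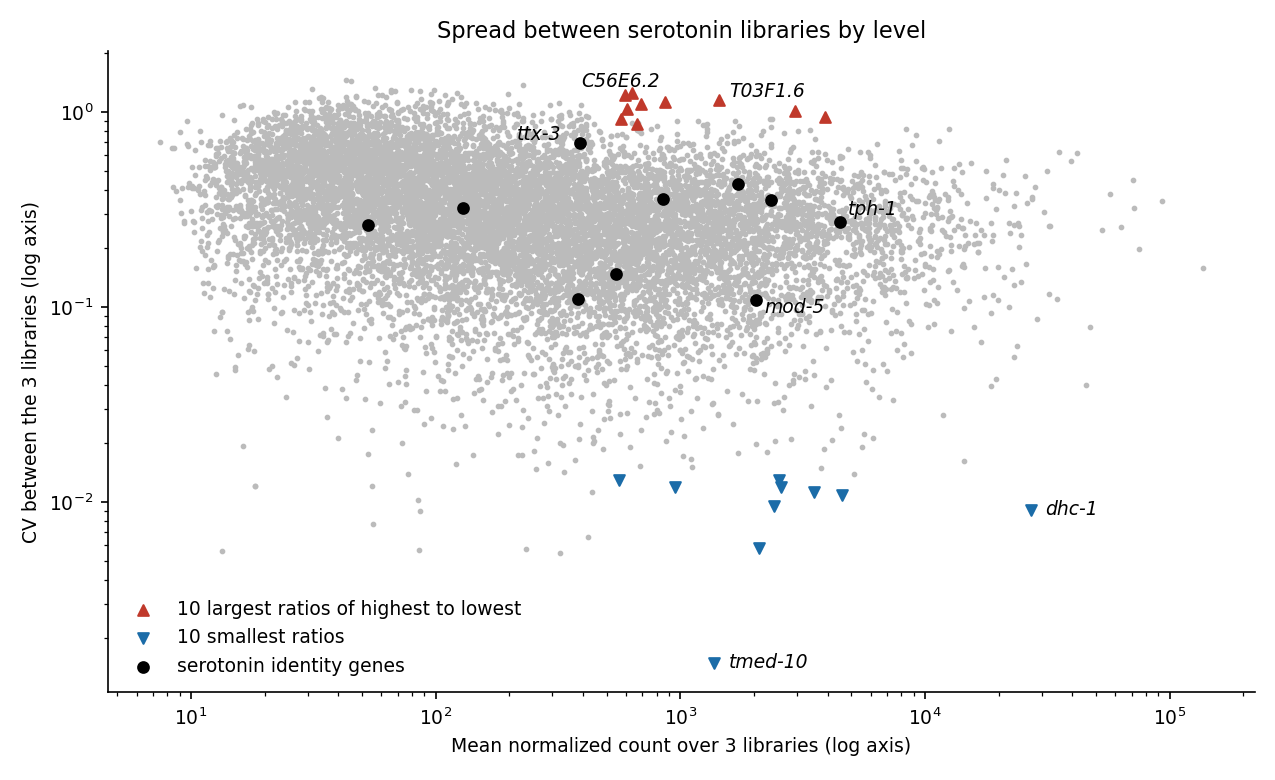
CV between the 3 libraries (log axis) against mean normalized count (log axis) for each detected protein-coding gene, with the 10 largest and 10 smallest ratios of highest to lowest library among genes of at least 500 normalized counts and the serotonin identity genes marked. The CV of mod-5 is 0.109 and that of ttx-3 is 0.694.

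Of 3748 protein-coding genes with a mean of at least 500 normalized counts, 116 had a highest library under 1.1 times the lowest and 40 had it over 4 times. Of those 40, 4 were highest in library 1, 20 in library 2 and 16 in library 3. The largest ratio was that of C56E6.2, with 8.81, 60.58 and 4.95 FPKM, followed by T03F1.6 with 24.1, 122.2 and 11.33, both highest in library 2. The receptor guanylyl cyclase genes gcy-15 and gcy-21 were highest in library 3, at 84.33 against 20.25 and 12.78 FPKM and at 17.46 against 6.23 and 2.80. The cytochrome P450 gene cyp-36A1 was the reverse, at 210.5, 58.7 and 34.52. Among the most even were tmed-10, of vesicle transport, at 64.48, 64.32 and 64.49 FPKM, the dynein heavy chain gene dhc-1 at 85.99, 86.89 and 87.55, and the diacylglycerol kinase gene dgk-1 at 39.23, 40.11 and 39.97.

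Of 19635 protein-coding genes 11657, or 59.4%, were detected, 2836 had at least 10 reads in exactly 2 libraries, 2595 in exactly 1 and 473 had no read in any. The last count was 1268 without library 1, and 1163 with at most 3 reads summed over the libraries as the limit. Of the 2595, 2106 were in library 1, 449 in library 2 and 40 in library 3, which had the fewest protein-coding reads. Brought to the protein-coding reads of library 3, an alternative chosen after the data were seen, libraries 1 and 2 would hold 14691 and 13051 genes with at least 10 reads, against 16559 and 14699 as deposited and 11980 in library 3. Genes without any read included 87 of 1311 chemoreceptor genes, 20 of 322 F-box genes, 13 of 81 histone genes, 11 of 240 C-type lectin genes and 9 of 31 major sperm protein genes, against 2.41% of all. The histone and sperm protein genes are sets of near-identical copies, where reads that match several genes may be lost.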

How the data were processed

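RNA-seq of 3 libraries labelled as serotonin neurons was described. The authors deposited normalized counts, a signal in which each library's reads are scaled by a single factor, and FPKM values with the same scaling that also take gene length into account. Per the submitters' processing notes STAR, HTSeq and DESeq2 were used. What each did, in which version, on which build and with which strand setting was not given in the sources used here. Libraries were amplified from 1 to 2 ng of RNA, per the labels' protocols, and no counting error was separated from the spread between them. Each deposited column was whole multiples of 1 step (0.393, 0.500 and 1.23 in libraries 1, 2 and 3) within 0.02 for at least 99.994% of values, so reads were recovered by division. Genes were matched by identifier to WBcel235 with Ensembl release 115, 46407 of 47063, and 656 were left out. Detection was at least 10 reads in each library. CVs are of normalized counts, and log2 values are log2(normalized count + 1). List shares are of protein-coding FPKM. Work was done in Python 3.11.15 with pandas 2.3.3, scipy 1.17.1 and matplotlib 3.10.9, and read recovery was tested on simulated data.

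Lists, families and members were chosen with earlier results of these data known, so they support nothing independently. Named genes were all members of the identity, NSM and ADF lists, the 30 highest genes by FPKM and the 20 highest without ribosomal and mitochondrial genes, up to 4 of each other list, up to 5 per gene family, the 10 largest and 10 smallest ratios between libraries, and sequence-named genes. Genes named outside it (among them flp-23, eat-4, ser-7, ges-1, rol-6, abu-6, abu-7, che-1, str-2, mcm-7, rab-3, pgl-1 and myo-3) were chosen after their values were seen. Alternatives were other detection limits, other pseudocounts, rescaling to an equal protein-coding total, quantile normalization, reads in place of FPKM and leaving out each library. Comparisons with the dopamine libraries were not made.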

Additional observations from a re-analysis of the deposited data

How the results depend on the processing

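No paired analysis was possible because 1 group was described and the results come from no test. Over alternatives that leave out 1 library, the detected genes ranged from 11697 to 14210 against 11657, genes without a read from 594 to 1268 against 473, genes at a mean of at least 10 FPKM from 4705 to 4895 against 4832, the median CV from 0.247 to 0.263 against 0.301 and the median SD of log2 values from 0.354 to 0.380 against 0.437. Detected genes and genes without a read cannot fall in number when a library is left out. A median spread over fewer libraries tends to be lower, so those falls do not point to 1 library. The largest rise in genes without a read came without library 1, the deepest in protein-coding reads. With at most 3 summed reads as the limit, 1163 genes counted as without reads. Without a filter the median CV was 0.473 and the median SD 0.632, and with 50 reads in each library the CV was 0.260. The median SD was 0.409 with a pseudocount of 8 and 0.421 after quantile normalization. By reads in place of FPKM the share was 0.0575% for NSM genes against 0.134%, 0.0716% for ADF against 0.050%, 0.338% for cilia against 0.198% and 2.73% for ribosomal proteins against 7.2%, since FPKM divides by length. So NSM genes held more than ADF genes by FPKM and less by reads. After rescaling, an alternative added after the data were seen, 4843 genes were highest in library 1 against 3199. Of 56 list and family shares, 38 moved by more than the SD between libraries with reads in place of FPKM, as did 4 of 10 identity gene ranks when ranked by normalized count. Leaving out 1 of 3 libraries cannot move a mean by that much and is no sign of stability. Over those settings ttx-3 ranked from 3683 to 5671 and cat-4 from 475 to 929. Library 3 holds the fewest protein-coding reads, so low genes such as srh-142 are measured least well there.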

Other observations

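Outside the protein-coding genes, nuclear ribosomal RNA, led by rrn-3.1, took more reads than mitochondrial ribosomal RNA in libraries 1 and 3 and fewer in library 2. The most abundant gene of the ncRNA class was C30E1.9 with 40873.11, 69780.77 and 50009.31 normalized counts, highest in library 2, and 944 of 7698 genes of this class were detected. The leading long intergenic RNA gene, linc-22, had an even 3209.77, 3529.01 and 3140.31. The leading antisense RNA gene, anr-54, had 1897.56, 2103.21 and 1622.95. Among 15363 piRNA genes 152 were detected, and the highest, 21ur-6496, had 154.49, 276.96 and 108.03. Mitochondrial ribosomal RNA took 6.22%, 11.7% and 3.46% of all reads in libraries 1, 2 and 3, and mitochondrial protein-coding genes 0.679%, 0.552% and 0.224%, both lowest in library 3.

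Detection differed by chromosome. On chromosome III 76.3% and on chromosome I 71.9% of protein-coding genes were detected, against 44.5% on chromosome V. Chromosome V carries many chemoreceptor genes, and their part in its lower share was not tested. Chromosomes III, I and V held similar shares of protein-coding FPKM, with means of 18.1 ± 0.317%, 18.1 ± 0.254% and 18.9 ± 0.228% (SD, n = 3). The X chromosome had 65.2% detected and 13.8 ± 1.06% of FPKM, and its share varied most between libraries among the nuclear chromosomes.

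Some cell cycle and germline genes were present. All 13 cell cycle genes were detected, with 2 at a mean of at least 10 FPKM, pcn-1 at 49.3 ± 0.817 and bir-1 at 37.1 ± 8.16 (SD, n = 3). Of 8 germline genes 7 were detected, led by gld-1 at 22.9 ± 6.20 and glh-1 at 11 ± 3.76, while the P granule gene pgl-1 averaged 0.610 ± 0.593. Of 6 touch receptor genes all were detected, led by the tubulin gene mec-12 at 13.06, 16.76 and 18.74 FPKM in libraries 1, 2 and 3 and the tubulin acetyltransferase gene mec-17 at 7.85 ± 1.36. Among collagens 47 of 176 were detected and 3 had a mean of at least 10 FPKM, the highest col-76 at 17.6 ± 5.46. Major sperm protein genes had 2 of 31 detected. Over all protein-coding genes the detected share was 59.4%.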
